A study of Homo sapiens with 12 samples.

Results

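Peaks of H3K9me3 on chromosome 16 are described here. They comprise every peak that the deposited lists place on this chromosome, 686 in the wild-type (WT) list and 1255 in the SMARCA3 knockout (KO) list, together 1941 of 112068 peaks. The cells were 293T, a line derived from human embryonic kidney that carries the SV40 large T antigen, either WT or with the label SMARCA3_KO. SMARCA3 is the older symbol of HLTF, which encodes a DNA translocase of the SWI/SNF superfamily that also acts as a ubiquitin ligase. Each genotype has 3 ChIP libraries and 3 inputs, described as biological triplicates, and the number of knockout clones behind them is not stated. The chromosome was chosen by its number of KO against WT peaks in these lists, so that excess is a description and supports nothing further. Only 1 list exists per genotype, so the spread between replicates is not known for any difference given here.

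H3K9me3 is laid down by the SUV39H and SETDB1 methyltransferases and is read by HP1 proteins. It marks satellite repeats around centromeres, silenced transposable elements and the 3' exons of many zinc finger genes of the KRAB family. Chromosome 16 is gene-rich, its short arm is known for recent segmental duplications, and a large block of satellite heterochromatin lies beside its centromere on the long arm.

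Few gene starts on chromosome 16 met a called peak, and a start without a peak is not read as free of the mark. Of 1293 RefSeq promoter windows, each from 250 bp before to 50 bp after a gene's start, 2 met a WT peak and 4 met a KO peak (0.155% and 0.309%). Over all chromosomes 0.245% of such windows met a WT peak and 0.632% a KO peak. The 4 windows are printed because they are the only ones that met a peak. All 4 belong to genes of long noncoding RNAs. Below them stands the start of KRABD5, the current RefSeq name of ZNF720, because this gene led the excess of KO peaks while its start lay 12055 bp from the nearest KO and 23848 bp from the nearest WT peak. CpG dinucleotides (CG on the strand printed, which reads CG on the other strand too) are in capitals.
ATP2C2-AS1: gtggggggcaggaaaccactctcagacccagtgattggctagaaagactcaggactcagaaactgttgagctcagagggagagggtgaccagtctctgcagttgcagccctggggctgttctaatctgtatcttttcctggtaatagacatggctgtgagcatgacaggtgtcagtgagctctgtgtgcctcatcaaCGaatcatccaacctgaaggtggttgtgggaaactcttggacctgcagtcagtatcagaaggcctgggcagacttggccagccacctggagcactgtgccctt
LOC101928682: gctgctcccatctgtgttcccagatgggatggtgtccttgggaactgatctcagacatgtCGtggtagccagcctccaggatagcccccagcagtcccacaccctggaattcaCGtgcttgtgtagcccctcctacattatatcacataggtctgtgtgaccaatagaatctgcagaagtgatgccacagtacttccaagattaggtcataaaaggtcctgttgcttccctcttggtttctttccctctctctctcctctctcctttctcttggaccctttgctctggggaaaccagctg
LINC02169: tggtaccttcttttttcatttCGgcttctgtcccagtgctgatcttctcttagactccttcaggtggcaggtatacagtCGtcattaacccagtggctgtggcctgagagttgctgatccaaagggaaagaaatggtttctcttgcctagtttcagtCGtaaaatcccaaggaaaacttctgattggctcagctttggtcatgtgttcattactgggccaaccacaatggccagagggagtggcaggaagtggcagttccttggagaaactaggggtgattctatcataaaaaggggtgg
LOC105371203: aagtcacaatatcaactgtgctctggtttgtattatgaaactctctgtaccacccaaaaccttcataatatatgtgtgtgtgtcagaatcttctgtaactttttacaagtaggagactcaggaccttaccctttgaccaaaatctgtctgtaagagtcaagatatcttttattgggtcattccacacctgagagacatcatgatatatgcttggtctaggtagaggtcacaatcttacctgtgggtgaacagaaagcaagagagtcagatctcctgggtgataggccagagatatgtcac
KRABD5: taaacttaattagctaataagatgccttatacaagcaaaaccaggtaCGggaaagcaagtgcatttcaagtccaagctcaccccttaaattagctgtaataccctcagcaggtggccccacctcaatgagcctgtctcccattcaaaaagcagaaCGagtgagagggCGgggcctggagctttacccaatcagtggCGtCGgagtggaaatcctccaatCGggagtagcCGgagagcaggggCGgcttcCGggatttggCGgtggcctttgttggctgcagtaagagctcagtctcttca

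The windows are ATP2C2-AS1 at chr16:84467312-84467611, LOC101928682 at chr16:87292403-87292702 and LINC02169 at chr16:54270830-54271129 on the minus strand, and LOC105371203 at chr16:35450521-35450820 and KRABD5 at chr16:31712994-31713293 on the plus strand (GRCh38.p14, the assembly of hg38). At ATP2C2-AS1 a WT peak of 871 bp covered 259 bases of the window and a KO peak of 1133 bp covered all 300. At LOC101928682 a WT peak covered 75 bases and a KO peak 187. At LINC02169 a KO peak of 1136 bp with a fold of 5.34 covered 232 bases, and the nearest WT peak lay 25712 bp away. At LOC105371203 only the edge of a KO peak, 16 bases, reached the window. The marked windows held 1, 2, 3 and 0 CpGs in that order, and the KRABD5 window held 10. The median over the chromosome's 1293 windows was 20, and 15.8% of them held 3 or fewer, while 97.4% held at least 1. Among all 222 windows of the genome under a KO peak, 62.6% held 3 or fewer CpGs, against 24.5% of all 35116 windows. None of the 71 miRNA hairpins of the chromosome met a peak of either list.

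Counted over all peaks, the pericentromere had the highest ratio of KO to WT peaks of the 3 regions and the long arm the lowest. The short arm, up to 31 Mb, had 155 WT and 295 KO peaks, a ratio of 1.90 (95% interval 1.57 to 2.31). The pericentromere, from 31 to 47 Mb, had 148 and 344 peaks, a ratio of 2.32 (1.92 to 2.82). The long arm had 383 and 616 peaks, a ratio of 1.61 (1.42 to 1.83). These intervals treat peaks as independent, so they are not used to compare the regions. KO-only peaks of the pericentromere lay a median of 321 bp from the nearest other KO peak. In covered bases the ratios were 2.19, 2.53 and 1.80, with 96655 and 211373 bases on the short arm, 108662 and 274889 in the pericentromere, and 271305 and 487485 on the long arm. Mean peak width was 624 and 717 bp on the short arm, 734 and 799 bp in the pericentromere, and 708 and 791 bp on the long arm, in WT and KO. Of the excess of 569 KO peaks, the short arm held 24.6%, the pericentromere 34.4% and the long arm 40.9%.

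**Figure D1:**
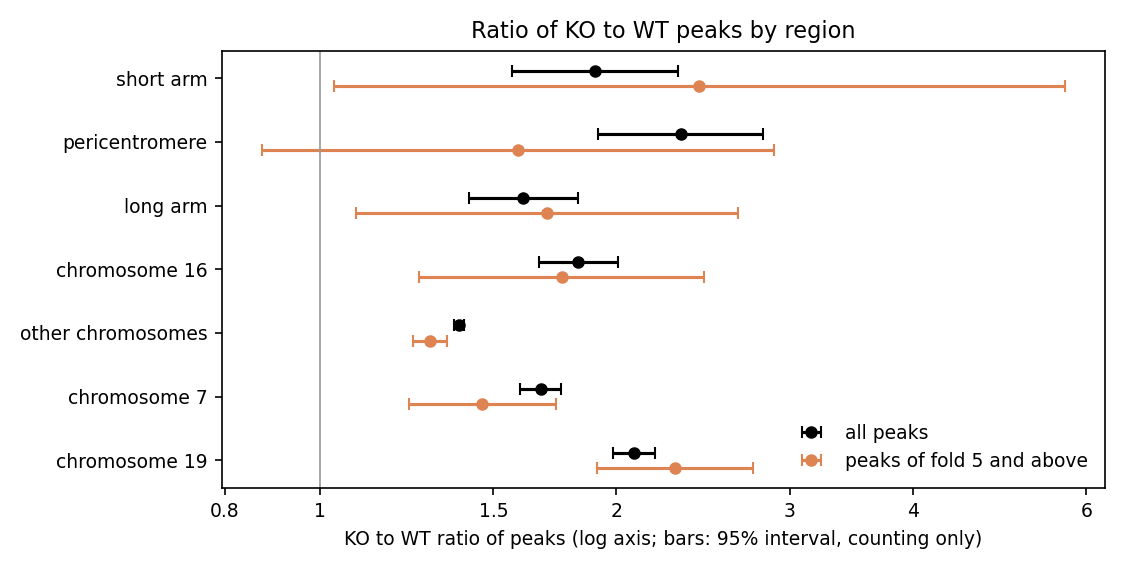
KO to WT ratio of peak numbers (log axis) for the 3 regions of chromosome 16, the whole chromosome, all other chromosomes together, and chromosomes 7 and 19, for all peaks and for peaks of fold 5 and above. Bars are 95% intervals that cover counting only. The pericentromere stands highest of the 3 regions for all peaks (2.32), and its interval reaches below 1 from fold 5.

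All 3 regions stood above the pooled value of the other chromosomes, 1.38 (1.37 to 1.40), but not above each of them. Chromosome 21, at 3.52, exceeded every region, and the long arm stood below chromosomes 19, 7, 20, 14 and 22. Chromosome 16 as a whole, at 1.83 (1.67 to 2.01), ranked 3 of 23 chromosomes, between chromosome 19 at 2.08 and chromosome 7 at 1.68. From fold 5 upward the ratio was 1.76 (1.26 to 2.45) on chromosome 16, with 54 WT and 95 KO peaks, and 1.29 (1.24 to 1.35) elsewhere. By region these stronger peaks numbered 7 and 17 on the short arm, 17 and 27 in the pericentromere, and 30 and 51 on the long arm. When peaks of a list within 1 kb of each other were joined, the ratio in the pericentromere was 1.37, with 82 and 112 joined peaks, while the short arm stood at 1.79 and the long arm at 1.60. Many of the additional KO peaks of the pericentromere therefore lay within 1 kb of another KO peak. With q-values at or below the median of both lists, the short arm had a ratio of 3.33, the long arm 2.51 and the pericentromere 2.23. From fold 5, after joining, and by this q-value the short arm therefore stood above the pericentromere.

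Most WT peaks of chromosome 16 touched a KO peak by at least 1 bp, but fewer matched it in extent. Of 686 WT peaks, 614 met a KO peak, or 89.5% (87.0 to 91.6), and 43.9% did so when the overlap had to cover 50% of both peaks. The 1 bp rule left 72 WT-only peaks, 10.5%, where the share over all chromosomes was 20.1%. Of 1255 KO peaks, 539 met a WT peak, leaving 716 KO-only peaks, 57.1%, where the share over all chromosomes was 49.4%. These shares follow from the excess for which the chromosome was chosen, and nothing is read from them. KO-only peaks made up 58.6% of KO peaks on the short arm, 66.0% in the pericentromere and 51.3% on the long arm. They were narrow, with a median width of 394 bp against 885 bp for shared KO peaks, and had a median fold of 3.43 against 3.97.

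By median distance and within 10 kb, KO-only peaks of the pericentromere lay nearer to WT peaks than those of the arms. The median distance from a KO-only peak to the nearest WT peak was 2127 bp in the pericentromere, 11648 bp on the short arm and 12874.5 bp on the long arm. In the pericentromere 83.7% of them lay within 10 kb of a WT peak, against 46.8% and 47.2% on the arms. Of all 716, 118 lay more than 100 kb from any WT peak, 37 on the short arm, 19 in the pericentromere and 62 on the long arm. Of the 72 WT-only peaks, 46 lay within 1 kb of a KO peak and 1 lay beyond 100 kb.

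The regions differed in where their peaks fell relative to genes. In the pericentromere 73.0% of WT and 80.5% of KO peaks were intergenic in the authors' annotation, against 26.5% and 32.5% on the short arm and 28.2% and 30.8% on the long arm. Promoter classes, assigned by the authors up to 3 kb before or after a start, held 19.4% and 18.6% of peaks on the short arm, 5.41% and 4.65% in the pericentromere, and 11.0% and 13.1% on the long arm. Over the chromosome the promoter share was 11.7% in WT and 12.1% in KO, a difference of 0.450 percentage points with an interval from -2.67 to 3.36. By the type of assigned gene, KO peaks outnumbered WT peaks by a ratio of 1.48 (1.28 to 1.72) for protein-coding genes, with 291 and 431 peaks, and 1.93 (1.49 to 2.50) for lincRNA genes, with 88 and 170. Peaks without a gene had a ratio of 2.19 (1.89 to 2.54). On the other chromosomes these ratios were 1.31, 1.58 and 1.39.

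The share of peaks with evenly spaced folds also differed between regions. Many folds in each list lay within 1.5e-05 of an evenly spaced series of values, 0.0788 apart in WT and 0.0772 apart in KO, read here as peaks set against a constant background. On the short arm 38.7% of WT and 36.9% of KO peaks were of this kind, in the pericentromere 72.3% and 81.7%, and on the long arm 50.7% and 47.6%. On the other chromosomes the shares were 56.4% and 51.9%. Among these peaks alone the KO to WT ratio was 1.82 on the short arm, 2.63 in the pericentromere and 1.51 on the long arm. The part of the background in the excess was otherwise not tested.

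Nearly all windows with peaks along the chromosome had more KO bases, with high points in the pericentromere. Of 79 windows of 1 Mb with peaks, 78 had more KO than WT bases, where 89.2% of windows did so over chromosomes 1 to 22 and X. The exception, from 7 to 8 Mb, held 1 peak in each list with 317 WT and 313 KO bases. The window from 34 to 35 Mb gained most, with 38772 WT and 117665 KO bases. From 31 to 32 Mb, where ZNF720 and ZNF267 lie, 43898 and 83878 bases were covered. From 36 to 37 Mb, which holds no protein-coding gene, there were 7858 and 33050. On the long arm the largest gains were from 50 to 51 Mb, with CYLD and NOD2 (14845 and 31217 bases), and from 51 to 52 Mb, with SALL1 (6257 and 21024). These 5 windows held 35.2% of the chromosome's excess of 497125 bases. Outside these, from 35 to 36 Mb, KO had 16 peaks over 7101 bases where WT had none. The smallest gains were from 21 to 22 Mb (229 bases) and from 18 to 19 Mb (314 bases). From 15 to 17 Mb, where 53 RefSeq genes are annotated, neither list had a peak.

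**Figure D2:**
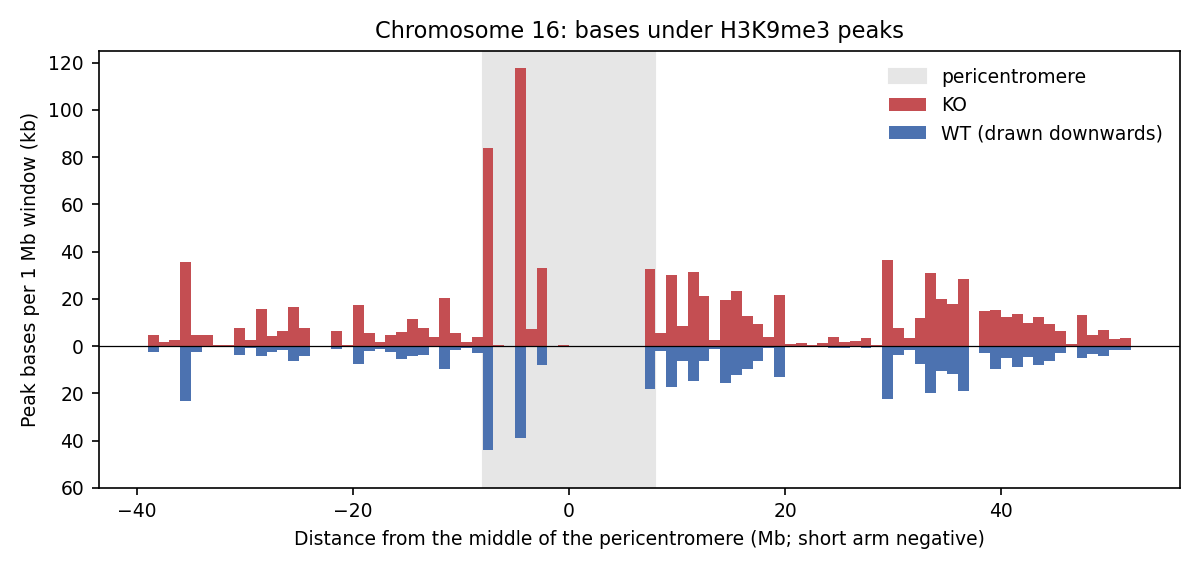
Bases under H3K9me3 peaks in windows of 1 Mb (kb, y axis), KO drawn upwards and WT downwards, against the distance from the middle of the pericentromere in Mb (x axis; the short arm is negative). The 2 tallest KO bars lie in the shaded pericentromere, and most of the shaded area right of its middle has no peak. Whether reads can be placed in that area was not tested.

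Within the pericentromere the peaks formed separate clusters, here divided where more than 200 kb held no peak of either list. The richest ran from 34571318 to 34959840, a stretch of 389 kb that contains no RefSeq gene. It held 42 WT and 128 KO peaks, all intergenic, of which 92 KO peaks and 2 WT peaks met none of the other list. WT peaks covered 7.11% of it and KO peaks 23.8%. The first 30 kb differed from the remainder. In these 30 kb, a bound chosen after the values were seen, both lists were dense, with 12 WT and 14 KO peaks over 14523 and 18647 bases, whereas the following 360 kb held 30 and 114 peaks over 13084 and 73684 bases. The median fold of those 114 KO peaks was 3.66. The ratio of the pericentromere was 2.12 without the window from 34 to 35 Mb, with 89 and 189 peaks, and that of the chromosome 1.75.

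**Figure D3:**
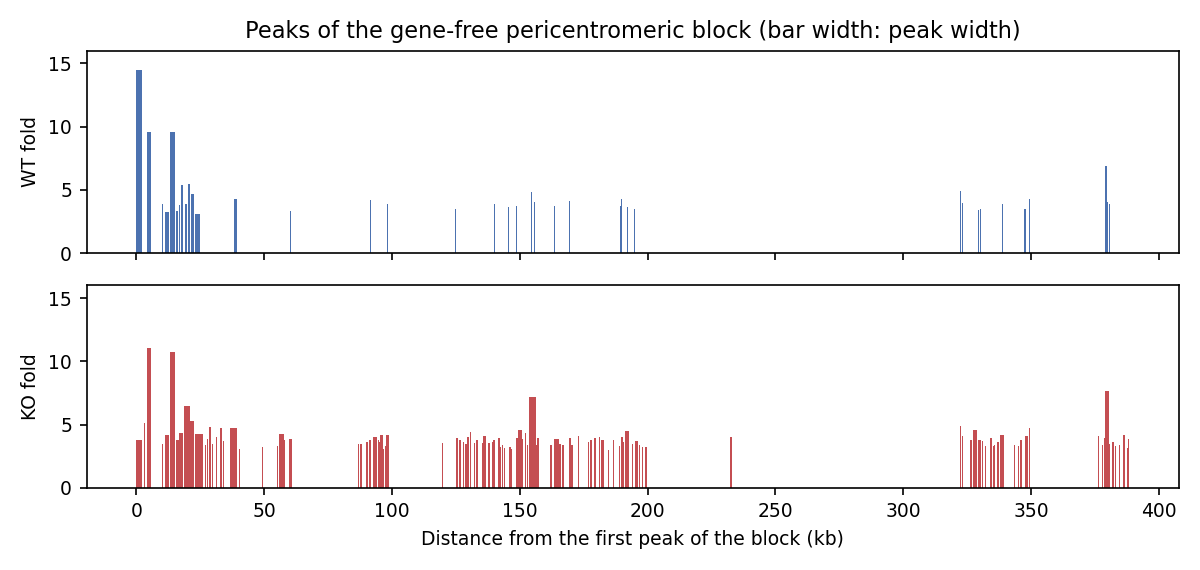
Peaks of the gene-free block by their distance from its first peak (kb, x axis), with bar width the peak width and bar height the fold enrichment given by the authors (y axis), WT above and KO below. Both lists are dense over the first 30 kb, and KO bars fill the stretch beyond it more densely than WT bars (114 against 30 peaks).

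The strongest peaks of the whole chromosome lay in the dense start of this block. In WT they were at 34571326 to 34573362, 34575639 to 34576924 and 34584512 to 34586464, with folds of 14.5, 9.60 and 9.57. KO peaks covered nearly the same bases at all 3 places, with folds of 3.77, 11.1 and 10.7. At the first place the peaks were 2037 and 2049 bp wide, so the fold given by the authors differed while the width did not. How reads from near-identical repeats were placed is not given, and values here may be split between copies.

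The other clusters of the pericentromere had the following numbers. Between 35439680 and 36335672, on the short arm side of the centromere, 19 WT and 71 KO peaks were called, in a stretch where 33 of 36 RefSeq genes are pseudogenes. All 19 WT peaks and 97.2% of the KO peaks had folds on the evenly spaced series that is read here as a constant background. Between 34062374 and 34184288, a stretch with DUX4L45 and other pseudogenes, there were 17 and 27 peaks over 11165 and 25334 bases. On the long arm side, from 46380527 to 46992212, 26 and 35 peaks covered 18134 and 32509 bases. There the strongest peaks, folds 7.71 in WT and 7.91 in KO, lay at its edge at 46383016 and 46382795. Over ITGAM, the gene of integrin alpha M, 5 WT and 4 KO peaks were called. From 32 to 34 Mb, where TP53TG3 copies and 44 pseudogenes among 68 RefSeq genes are annotated, WT had no peak and KO had 1. From 38 to 46 Mb, where the annotation has no gene, KO had 1 peak of fold 1.77 and WT had none. Whether reads can be placed in this stretch was not tested, so the absence of peaks is not read as absence of the mark.

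At the level of genes, 226 names on chromosome 16 were assigned a peak. Of these, 161 had peaks in each list, 62 had KO peaks alone and 3 had WT peaks alone. More KO than WT peaks were assigned to 140 genes, 61.9%, where the share over all chromosomes was 54.7%. Fewer were assigned to 29, or 12.8%, where it was 20.2%. Genes with a peak in KO alone made up 23.7% of genes over all chromosomes. On the other chromosomes 2135 of 9035 genes had KO peaks alone and 560 had WT peaks alone. Of the 140 genes, 87 had 1 more peak, and the 12 genes with the largest excess held 101 of the 298 peaks gained, or 33.9%. These 12 were 8 protein-coding and 4 noncoding genes, 1 in the pericentromere, 4 on the short arm and 7 on the long arm.

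**Figure D4:**
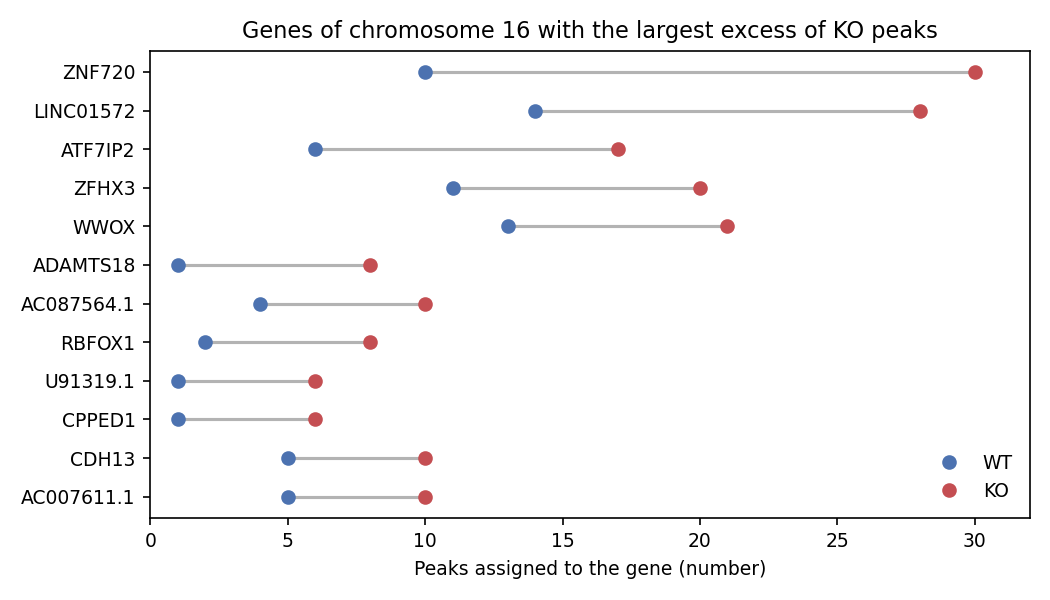
Number of peaks assigned to each of the 12 genes with the largest excess of KO peaks (x axis), WT and KO points joined by a line. ZNF720 (10 and 30 peaks) and LINC01572 (14 and 28) have the largest differences.

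ZNF720 (31713293 to 31793707, plus strand), whose current RefSeq name KRABD5 names a KRAB domain and no zinc finger, led the list. It had 10 WT peaks over 10486 bases and 30 KO peaks over 26920 bases. WT peaks lay between 31737141 and 31781167 with folds from 3.61 to 4.70, and KO peaks between 31725348 and 31783537 with folds from 2.66 to 5.67. The widest KO peak, 6408 bp from 31748440 to 31754847, joined a place where WT had 3 peaks. Further towards the 3' end, from 31758452 to 31783537, there were 18 KO peaks and 2 WT peaks. Of the peaks whose fold reached the median of the pooled lists, 3.69, ZNF720 had 8 in WT and 13 in KO. The RefSeq model of the gene is shorter, and 8 WT and 14 KO peaks overlapped it. Most of the 18 KO peaks and the 2 WT peaks of the stretch towards the 3' end lay beyond that model. Only the deposited annotation gives that sequence to this gene.

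Its neighbour ZNF267, a zinc finger gene (31874066 to 31916852), had almost as many peaks in WT as in KO, 15 and 16, but 18817 and 30890 bases. Its 3' end carried the widest peak of the chromosome in both lists, 8740 bp in WT from 31909556 and 10019 bp in KO from 31910838. KO peaks there were wider, with a median of 1323 bp against 626 bp, and 5 of the 16 met 2 or more WT peaks. When only the 46898 KO peaks of highest fold were kept, the length of the WT list, KO minus WT peaks was -4 at ZNF267. The gain at ZNF267 was therefore one of covered bases, and the gain at ZNF720 one of both peaks and bases.

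**Figure D5:**
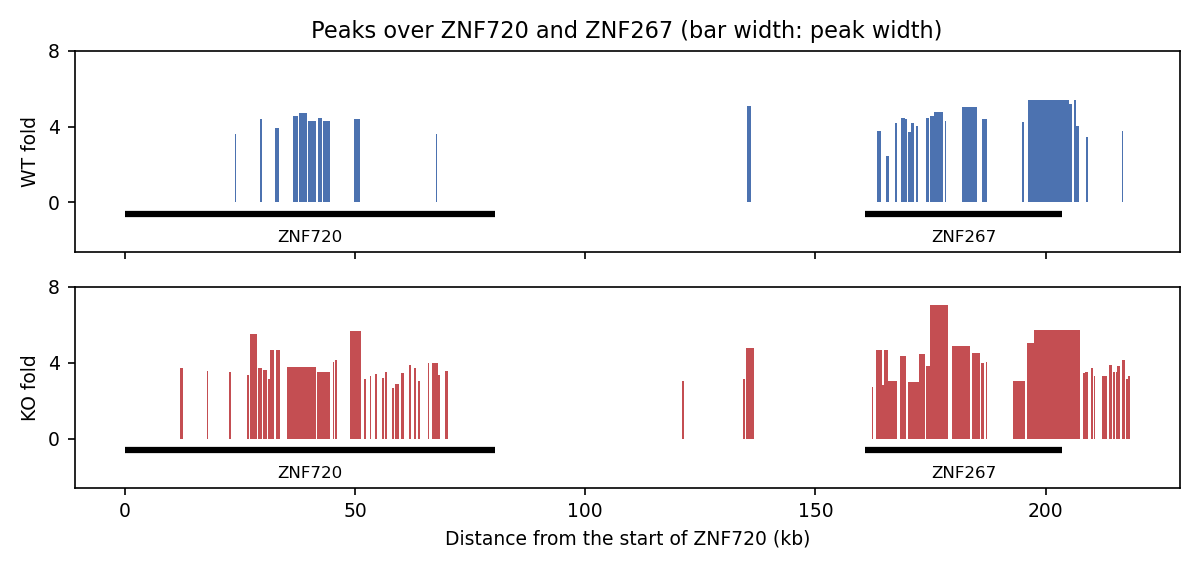
Peaks over ZNF720 and ZNF267 by their distance from the start of ZNF720 (kb, x axis), with bar width the peak width and bar height the authors' fold enrichment (y axis), WT above and KO below; black lines mark the genes. KO bars fill the 3' part of ZNF720 as the authors annotate it, where WT has few, and a wide peak stands at the 3' end of ZNF267 in both. The RefSeq model of ZNF720 is shorter, and most of that part lies beyond it.

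LINC01572, a long noncoding RNA gene of the long arm (72283301 to 72664947, minus strand), had 14 WT and 28 KO peaks over 10660 and 18921 bases. The excess was concentrated in a stretch inside the gene, in its part towards the start. The bounds of the stretches given for this gene, ZNF720 and ATF7IP2 were chosen after the values were seen. From 72625647 to 72646522 KO had 11 peaks over 8026 bases with folds from 3.20 to 5.21, and WT had 1 peak of 927 bases with a fold of 4.56. Nearer the start KO had no excess. WT peaks there began at 72653875, 72654290 and 72657169, and KO peaks at 72653703 and 72654304. Further inside the gene, near 72365482 to 72423295, the lists were alike, with 9 WT peaks over 7976 bases and 11 KO peaks over 8450. Peaks at or above the median fold numbered 10 in WT and 13 in KO.

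ATF7IP2, a relative of the SETDB1 partner ATF7IP, led the short arm (10326434 to 10483638) with 6 WT and 17 KO peaks over 2270 and 9614 bases. Between 10402493 and 10418560 it had 4 WT peaks over 1642 bases and 10 KO peaks over 6730. At or above the median fold 5 WT and 6 KO peaks were left, so nearly all of the KO excess at ATF7IP2 lay in peaks below that fold. RBFOX1, the gene of a neuronal splicing regulator, had 2 WT and 8 KO peaks spread over 2004 kb in KO, and 1 in each list at or above the median fold. CPPED1, which encodes a phosphatase, had 1 and 6 peaks, with 1 and 3 at or above the median fold. The noncoding U91319.1 also had 1 and 6, with 1 and 4 at or above it.

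On the long arm, ZFHX3, the gene of a zinc finger and homeobox transcription factor, had 11 WT and 20 KO peaks over 7014 and 14018 bases. WWOX, an oxidoreductase gene that spans a common fragile site, had 13 and 21 peaks over 9690 and 17243 bases. Peaks of both genes were spread over most of their length, from 73001244 to 73759620 in ZFHX3 and from 78159033 to 79168187 in WWOX in the WT list. For both genes the excess was also present where the fold reached that median, with 8 WT and 14 KO peaks each. ADAMTS18, the gene of a secreted metalloprotease, had 1 WT peak of 1802 bp and 8 KO peaks over 6178 bases, and its window from 77 to 78 Mb had 4 and 27 peaks. CDH13, which encodes the lipid-anchored T-cadherin, had 5 and 10 peaks, and the noncoding AC087564.1 and AC007611.1 had 4 and 10 and 5 and 10. Where the fold reached the median, AC087564.1 had 3 WT and 5 KO peaks and ADAMTS18 had 1 and 5, and by overlap with its body ADAMTS18 also had 1 and 5. After the KO list was cut by fold to the length of the WT list, AC087564.1 had 4 and 6 peaks, WWOX 13 and 18, LINC01572 14 and 23 and ATF7IP2 6 and 12. In a part of the arm with few peaks, between 59 and 68 Mb, 9 WT peaks and 33 KO peaks were called, none above a fold of 4.59.

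Few genes had more WT than KO peaks, and most of those had more KO bases. CHD9, the gene of a chromodomain helicase, had 7 WT and 4 KO peaks but 3877 and 4767 bases. GSG1L, which encodes an auxiliary subunit of glutamate receptors, had 11 and 9 peaks with 4806 and 9174 bases, and N4BP1 had 11 and 9 with 7203 and 9840. KO minus WT peaks was 3 at GSG1L where the fold reached the median, and 1 at N4BP1 by overlap with the gene body. C16orf87 had 4 and 2 peaks with 2585 and 2930 bases. NUP93, the gene of a nucleoporin, had fewer of both, 3 and 1 peaks over 2022 and 1494 bases. KO bases exceeded WT bases at 199 of all 226 genes and fell short of them at 27. On the other chromosomes this was so at 7117 and 1915 of 9035 genes.

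Zinc finger genes of the C2H2 class held the 3 peaks of highest WT fold on the long arm and the widest peaks of all 3 regions in both lists. Of 38 such genes on the chromosome, 13 had a peak in each list, and these were the same genes. Of those 13, 11 had more KO peaks and 2 had fewer, ZNF423 and ZNF19. Over all 854 RefSeq protein-coding genes of the chromosome, 120 had a peak (14.1%), 70 had more in KO and 20 fewer. The list was chosen with results of these data known. The median of KO minus WT peaks among genes with a peak was 1 in the zinc finger list and 1 over all protein-coding genes. Covered bases at the zinc finger genes were 88330 in WT and 145912 in KO. Of their 74 WT and 118 KO peaks, 10 and 30 were at ZNF720, which is in the list under its older name. ZFP90, which encodes a KRAB repressor, had 14 and 18 peaks over 16388 and 24583 bases, with a peak of 8214 bp in WT and 9235 bp in KO of folds 8.50 and 7.73. At ZFP90 KO minus WT peaks was -5 when both lists were equally long. At ZFP1 the widest peak was 5608 bp in WT and 9125 bp in KO, and at ZNF23 it was 2536 and 5359 bp. On the short arm, ZNF75A had the highest fold in WT, 7.08, where the matching KO peak had 4.05, and ZSCAN32 had 4068 bases in WT and 1717 in KO. That WT peak of ZSCAN32 met 2 KO peaks. AC025283.2, whose coordinates overlap the same WT peak, had 818 bases in WT and 3383 in KO. Whether KO peaks there went to a different gene name was not tested. ZNF200 had 2 and 6 peaks. At or above the median fold, 5 members of the zinc finger list had more KO peaks and 5 fewer, and in lists of equal length 4 had more and 5 fewer.

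Peak bases at zinc finger genes lay further towards the 3' end than those at other genes. The median position of peaks differed less. It was 47.3% of gene length in WT and 50.2% in KO at zinc finger genes, against 39.5% and 39.9% at the others. The final stretch, when each gene was divided into 3 equal lengths, held 50.1% of WT and 44.2% of KO peak bases at the 13 zinc finger genes, and 22.7% and 25.8% at the other protein-coding genes with peaks (89 in WT, 111 in KO). Mean peak width was 1194 and 1237 bp at zinc finger genes and 660 and 782 bp at the others. The median widths were 753 and 636.5 bp against 501 and 533 bp. ZNF720 is among the 13, with 10486 of their 88330 WT bases and 26920 of their 145912 KO bases. Most of its KO peaks in the stretch towards the 3' end lay beyond its RefSeq model, and values without it are not given. Peaks at 1 gene are not independent, and these values are a description.

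The other gene groups ranged from 15 of 23 members with a peak to none, where 120 of all 854 protein-coding genes of the chromosome had one (14.1%), 70 with more in KO and 20 with fewer. The 15 were among long genes with neuronal or adhesion roles, 10 with more in KO and 4 with fewer. RBFOX1, WWOX and CDH13 are among these, and GRIN2A, the gene of a glutamate receptor subunit, had no WT and 1 KO peak. CDH13 was the 1 member with a peak among 8 cadherin genes. Around the IRX cluster, 4 of 8 genes had a peak. FTO, the gene of an RNA demethylase, had 6 in each list, CRNDE 2 in each, RPGRIP1L 1 and 0, and LPCAT2 3 and 7 with 4477 and 4459 bases. Of 19 chromatin and DNA repair genes, 4 had a peak, which besides CHD9 were CREBBP (1 and 2), PRDM7 (1 and 2) and SLX4 (0 and 1). Of 11 tumour suppressor genes, 4 had a peak, with CYLD at 1 in each, CIITA at 2 and 1, and WWOX and CREBBP as above. With the KO list cut to its 46898 peaks of highest fold, none of the chromatin and DNA repair genes had more KO peaks. They then held 9 WT and 4 KO peaks together. No peak of either list was assigned to any of 11 metallothionein, 5 alpha globin, 5 carboxylesterase or 30 genes of duplicated families such as NPIP and PKD1.

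The strongest peaks of both arms met a peak of the other list. On the short arm the highest folds after ZNF75A in WT were 5.80 over the noncoding AC007220.1 and 5.58 over TMEM114. In KO they were 6.22 over TMEM114, 6.21 in an intergenic peak from 14269236 to 14270930 and 6.05 over EMP2, each of which met a WT peak. On the long arm the highest folds in WT were at ZFP90, ZNF23 and ZNF19 (8.50, 8.03 and 7.16). In KO they were at ZFP1 (8.53), an intergenic peak from 54524827 to 54526864 (7.91) and ZFP90 (7.73). The WT peaks there had a fold of 6.21 at the intergenic place and 4.80 at ZFP1.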

How the data were processed

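The labels describe H3K9me3 ChIP-seq of 293T cells, with 3 ChIP and 3 input libraries for each genotype. The submitters' processing notes name HISAT2 and hg38. The sources used here do not give the peak caller, its use of the inputs, the joining of replicates or the handling of multiply mapped reads. The authors deposited 1 peak list per genotype, with a fold enrichment per peak (read here as a ratio over background) and a q-value per peak. No column belongs to a single library, so depth is unknown, and no p-value between genotypes was computed.

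Peaks were placed by their midpoint, with the pericentromere from 31 to 47 Mb, and a peak was shared when 1 bp or more of it overlapped the other list. Ratios of peak numbers carry the Wilson 95% interval of the KO share turned into a ratio. These intervals cover counting only and treat peaks as independent. Genes are those of the deposited annotation column. RefSeq genes and promoter sequences (GRCh38.p14) matched 154 of 226 gene names on the chromosome, of which 153 had overlapping coordinates. Named genes were the 12 with the largest KO minus WT number of peaks, the 5 with the largest WT minus KO number, the 8 with the largest gain of bases, and up to 4 members of each gene list by change of bases. Named regions were the 3 peaks of highest fold and the 2 widest per list and region, and windows of 1 Mb, 5 by gain and 3 by loss of bases. The chromosome, the lists and the rules were chosen with earlier results of these data known. Functions for overlap, windows and intervals were tested on simulated data (Python 3.11.15, pandas 2.3.3).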

Additional observations from a re-analysis of the deposited data

How the results depend on the processing

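No paired analysis was possible because the lists have no column per library; for the same reason no replicate could be left out. Alternatives on the background grid and on the window from 34 to 35 Mb were chosen after seeing the data. The KO to WT ratios of peaks and of bases for the 3 regions and the chromosome stayed above 1 in the alternatives run on them. Ratios of peaks at or above the median fold were 1.60 in the pericentromere and 1.57 on the chromosome. From fold 5 they were 2.43 on the short arm and 1.59 in the pericentromere, where bases gave 1.98. Past the common q-value, peaks gave 3.33 on the short arm, 2.51 on the long arm and 2.59 on the chromosome, and bases 3.30, 2.41 and 2.59. Equal lists were made by keeping the 46898 KO peaks of highest fold. The median fold on chromosome 16 was 3.73 in the full WT list and 3.59 in the full KO list. With 46898 peaks in each list the ratio of peaks was 1.30 on the short arm, 1.18 on the long arm and 1.37 on the chromosome, and that of bases 1.64, 1.46 and 1.67. Joining peaks within 1 kb gave 1.37 in the pericentromere and 1.61 on the chromosome. Grid peaks alone gave base ratios of 1.77 on the short arm and 1.54 on the long arm.

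Shared WT peaks were 43.9% by 50% overlap of both peaks, 96.2% within 1 kb, 93.0% at or above the median fold and 76.8% in equal lists. Shared KO peaks were 24.0%, 57.9%, 61.0% and 48.6%. In windows of 500 kb, 136 of 141 had more KO bases. In equal lists 64 of 76 windows of 1 Mb had more, and the promoter share was lower in KO by 1.97 points (KO minus WT -1.97). Zinc finger genes with more KO peaks numbered 4 in equal lists and 5 at or above the median fold. Genes around the IRX cluster with more numbered 2 by gene body and 2 at the median fold, chromatin genes 0 in equal lists, and tumour suppressor genes 1 in equal lists and 4 at the median fold. Of 19 named genes with more KO peaks, 14 had more in equal lists. The difference turned at ZFP90 (-5 in equal lists, -3 at the median fold), ZNF267 (-4 and -3), CIITA (1) and GSG1L (3) at the median fold, and N4BP1 (1) by gene body. The causes were not tested. Read depth, which would set how many weak peaks each list can hold, is unknown.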
